A study of Rattus norvegicus with 20 samples.

Results

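The genes described here encode proteins that copy DNA: Pola2, Pcna, Mcm2, Mcm3, Mcm5, Mcm6, Mcm7, Rrm1, Rrm2 and Tyms. They were taken by name as every probe whose single gene symbol in the platform annotation is 1 of these 10. That gave 13 probes for 9 genes, of 12199 genes with such a probe, out of 16865 probes with 1 symbol and 35129 probes on the array. Mcm3 had no probe. Pola2, Mcm5, Mcm6 and Rrm1 had 2 probes each and the other genes 1 each. Both Rrm1 probes cite the same transcript.

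RNA came from mesenteric arteries of female Sprague Dawley rats that had all been ovariectomised at 4 weeks of age and left for 2 weeks before treatment. Rats were then dosed daily by gavage for 3 weeks and studied at 9 weeks of age, with 1 array per rat. The groups were the cyclodextrin vehicle (VEH, 4 arrays), ethinyl estradiol (EE, 3), estradiol benzoate (EB, 3) and equilin (EQ, 3) at 0.15 mg/kg each, and tamoxifen (TAM, 4) and raloxifene (RAL, 3) at 3 mg/kg each. The first 3 compounds are estrogens; the last 2 are selective estrogen receptor modulators (SERMs), which activate or block estrogen receptors depending on the tissue. Because every rat lacked ovaries, vehicle is a low-estrogen control, and no group of intact rats is in the comparison. Tissue was taken at 1 time, so the order in which replication and division were lost cannot be read; the comparison below is between genes at the end of treatment.

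A cell copies its genome in S phase, after hexameric MCM helicases have been loaded on DNA in G1. Polymerase alpha with primase starts each strand, the ring-shaped clamp Pcna holds the main polymerases on the template, and ribonucleotide reductase (Rrm1 with Rrm2) and thymidylate synthase (Tyms) supply deoxynucleotides. Most of these genes are transcribed at the G1/S border through E2F sites, whereas genes of mitosis are transcribed later, through CHR elements and CCAAT boxes. Cells of the adult arterial wall divide rarely.

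The upstream sequences are shown for the genes with a probe that passed in a comparison with vehicle, Mcm5 and Pola2, and for the other measured genes with an E2F-type match. Sequences are from RefSeq on the GRCr8 build, written 5' to 3' on the gene's strand, and capitals mark matches to TTTGGCGC, TTTCCCGC, TTTCGCGC or TTTGCCGC on either strand. The 250 bases before the start of Mcm5, on the plus strand at chr19:13488563-13488812, hold a pair of overlapping matches that begin 213 and 209 bases before the start, and a match that begins 8 bases before it. The 250 bases before the start of Pola2, on the minus strand at chr1:212680543-212680792, hold none of these letters.
Mcm5: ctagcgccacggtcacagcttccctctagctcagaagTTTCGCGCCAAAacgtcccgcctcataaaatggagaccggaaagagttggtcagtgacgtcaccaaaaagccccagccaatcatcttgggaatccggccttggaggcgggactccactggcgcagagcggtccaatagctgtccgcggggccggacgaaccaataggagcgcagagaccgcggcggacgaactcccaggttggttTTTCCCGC
Pola2: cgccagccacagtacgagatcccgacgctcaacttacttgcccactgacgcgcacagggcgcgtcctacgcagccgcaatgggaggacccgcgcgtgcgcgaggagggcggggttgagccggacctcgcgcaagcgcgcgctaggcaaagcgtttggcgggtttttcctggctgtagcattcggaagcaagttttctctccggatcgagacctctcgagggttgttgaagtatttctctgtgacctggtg
The other matches stand in these 40-base stretches, from chr4:122918095-122918134, chr13:42404468-42404507, chr12:22163388-22163427 and chr9:120776097-120776136, all on the minus strand.
Mcm2: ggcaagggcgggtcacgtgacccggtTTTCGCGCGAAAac
Mcm6: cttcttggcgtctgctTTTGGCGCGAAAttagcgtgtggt
Mcm7: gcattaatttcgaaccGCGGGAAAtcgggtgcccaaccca
Tyms: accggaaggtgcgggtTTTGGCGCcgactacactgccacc
Mcm7 has a further match that begins 52 bases before its start, outside the printed stretch.

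Over the full 300-base promoters (250 bases before and 50 after the start), 6 of the 9 replication genes with an entry (66.7%) held an E2F-type match, against 2.25% of all 27457 promoters. Mcm3, which has no probe, is among the 6; Pola2, Pcna and Rrm1 had none, and Rrm2 had no entry. Of 60 promoters of other replication genes 23 (38.3%) held such a match, and of 40 promoters of mitosis genes 1 (2.5%). The letters TTTGAA of the CHR type showed the opposite split, with 11.1% of the replication genes, 75% of the mitosis genes and 18.1% of all promoters. CCAAT, the box bound by NF-Y, was in 66.7%, 77.5% and 37.7% of them, and the GC box GGGCGG in 77.8%, 65% and 34.9%. These matches describe letters in a window and show no binding.

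**Figure D1:**
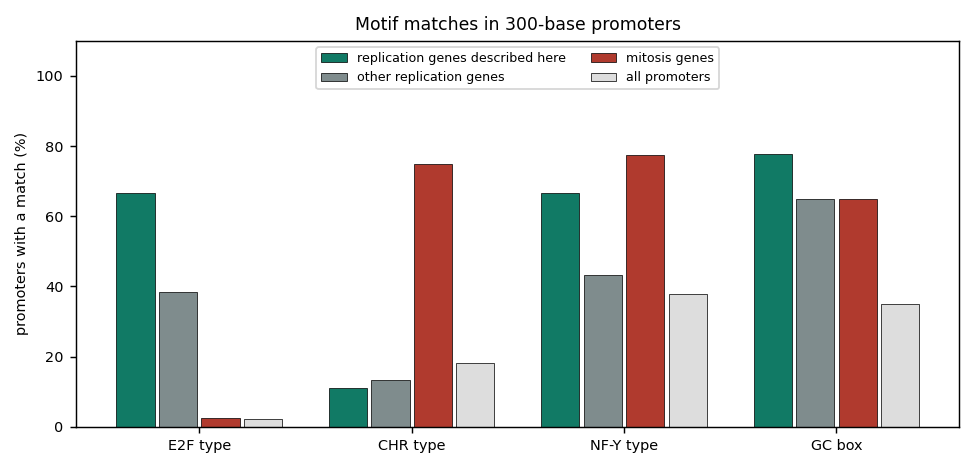
Share of 300-base RefSeq promoters (y axis, percent) with at least 1 match on either strand to each of 4 motifs (x axis), for the replication genes described here (9 promoters), other replication genes (60), mitosis genes (40) and all promoters (27457). E2F-type letters are in 66.7% of the replication promoters and 2.5% of the mitosis promoters, while CHR-type letters are in 11.1% and 75%.

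Levels are log2 intensities with the median of each array set to 0, and a change is a difference of group means on that scale, with its standard error. Changes were tested with limma over 24562 probes and said to pass where the Benjamini-Hochberg adjusted p was under 0.05. Of the 13 probes, 10 were bright enough to be tested; Mcm5 probe 140013, Rrm1 probe 147112 and Rrm2 probe 153031 had mean levels of -1.61, -1.47 and -1.55, below the limit of -1.43 that leaves out the dimmest 30%. The dimmest probe kept, Mcm6 probe 295026, had a mean of -1.24. No value of any of the 13 probes was missing or at or below 0.

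A gap in the deposited array medians, the widest there is, separated 2 sets of arrays; no label gives a name to either. Set A held VEH array 1 and all estrogen arrays, and set B held VEH arrays 2 to 4 and all SERM arrays. The sets also differed in 384 regularly spaced unnamed probes, whose median lay between 0.69 and 1.84 in set A and between -2.18 and -1.38 in set B. RAL array 3 and EE array 3 were the least like the others, with mean correlations of 0.889 and 0.944, against 0.958 to 0.970 for the rest. Smooth muscle genes were strongly present (Myh11, Tagln and Cnn1 at percentiles 100, 99.9 and 99.3 of all probes), although the Acta2 probe was at percentile 46.6. The tissue is bulk RNA, in which fewer dividing cells and less RNA per cell cannot be told apart.

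Pola2 passed as lower than vehicle under EE, on probe 197043 but not on probe 106098. Mcm5 passed as lower under EE and EQ, on its tested probe 135046. The remaining genes did not pass in any comparison with vehicle. Under EE, 2 of the 10 probes passed, both lower, where 0.660% of all probes passed in that direction and 1.20% in either. Under EQ 1 probe passed, also lower, against 1.94% of all probes in that direction and 3.69% in either. Under EB, TAM and RAL 0 of the 10 passed by limma, where 0.700%, 0.224% and 2.04% of all probes passed in either direction; at an unadjusted p under 0.05 the counts were 0, 3 lower and 2 lower, beside 4.71%, 4.87% and 15.8% of all probes in the lower direction.

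Pola2 encodes the regulatory B subunit of DNA polymerase alpha. On probe 197043 the vehicle arrays read 2.81, 2.74, 2.86 and 2.51. The EE arrays read 1.58, 2.25 and 1.20, the TAM arrays 1.70, 1.70, 2.21 and 1.83, and the RAL arrays 2.18, 2.15 and 1.24. All of these treated arrays lay below every vehicle array, as was so for 7.69%, 4.51% and 10.9% of all probes under EE, TAM and RAL. The EB arrays, at 2.90, 3.26 and 2.88, lay above every vehicle array, as did 3.67% of all probes. The EQ arrays, at 2.50, 2.61 and 2.75, overlapped the vehicle arrays.

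Against a vehicle mean of 2.73 ± 0.16 (SD, n = 4), the probe fell under EE by 1.06 ± 0.25 on the log2 scale, a 2.08-fold decrease (limma adjusted p = 0.0462). The change was -0.87 ± 0.23 under TAM (adjusted p = 0.185) and -0.88 ± 0.25 under RAL (adjusted p = 0.062), neither of which passed. Under EQ it was -0.11 ± 0.25 and under EB 0.28 ± 0.25. Across the 6 groups the F-test of any difference from vehicle passed for this probe (adjusted p = 0.0062), as it did for 8.84% of all probes. The EE call is near the threshold: it was lost in 16 of 20 fits that left out a single array (change -1.35 to -0.82, adjusted p 0.0123 to 0.15). Set against VEH array 1 alone, the only vehicle array of set A, the change was -1.14 with an adjusted p of 0.345.

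Probe 106098 of Pola2 gave a partly similar picture. Vehicle arrays read 0.96, 1.09, 1.38 and 0.79, EE arrays 0.14, 0.45 and 0.40, and TAM arrays 0.54, 0.51, 0.56 and 0.70. Both treated groups lay below vehicle, as was so for 7.69% of all probes under EE and 4.51% under TAM. EB arrays (1.27, 1.03 and 1.26) and EQ arrays (0.91, 1.08 and 0.82) overlapped vehicle. RAL arrays read 0.81, 0.61 and 1.70, and array 3, low on the other probe, was the highest of all 20 arrays on this one. The change was -0.73 ± 0.21 under EE (adjusted p = 0.102), -0.48 ± 0.19 under TAM (adjusted p = 0.486) and -0.02 ± 0.21 under RAL. None passed, and with all arrays the probes disagree for RAL. A fit without EE array 3 and RAL array 3 was chosen after the data were seen. There the RAL change was -0.35 on probe 106098 (limma adjusted p = 0.334) and -0.57 on probe 197043 (limma adjusted p = 0.193).

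Mcm5 encodes 1 of the 6 subunits of the MCM2-7 helicase. On probe 135046 the vehicle arrays read -0.24, -0.31, 0.26 and -0.06. The EE arrays read -0.86, -0.88 and -2.34, the EQ arrays -0.91, -1.43 and -1.48, the TAM arrays -0.88, -0.99, -0.81 and -0.81, and the RAL arrays -1.09, -0.69 and -1.45. Every array of these 4 groups lay below every vehicle array, and only the EB group (-0.81, -0.43 and -0.14) overlapped vehicle. Such separation held for 7.69%, 22.5%, 4.51% and 10.9% of all probes under EE, EQ, TAM and RAL, each taken alone.

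The vehicle mean was -0.09 ± 0.25 (SD, n = 4). Mcm5 fell under EE by 1.27 ± 0.30 on the log2 scale, a 2.41-fold decrease (adjusted p = 0.0471), and under EQ by 1.19 ± 0.30, a 2.27-fold decrease (adjusted p = 0.0348). The changes under RAL (-0.99 ± 0.30, adjusted p = 0.0704), TAM (-0.78 ± 0.28, adjusted p = 0.396) and EB (-0.37 ± 0.30, adjusted p = 0.856) did not pass. The F-test passed (adjusted p = 0.0418). Without EE array 3 the EE change was -0.78 (adjusted p = 0.14), and 16 of 20 fits without a single array lost the call (adjusted p 0.0298 to 0.157). The EQ call was lost without VEH array 3 (-1.07, adjusted p = 0.114), VEH array 4 (-1.17, adjusted p = 0.0847), EQ array 2 (-1.11, adjusted p = 0.164) or EQ array 3 (-1.09, adjusted p = 0.178), and with VEH array 1 as the only control (-1.04, adjusted p = 0.585).

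The dimmer Mcm5 probe, 140013, read -0.78, -0.90, -1.04 and -1.27 in vehicle, and every treated array read lower than or equal to the lowest of these. The share of all probes with that order is not given here. The EE arrays read -1.92, -2.06 and -1.69, the EB arrays -1.42, -1.53 and -1.27, and the EQ arrays -1.39, -1.71 and -1.58. The TAM arrays read -1.92, -1.83, -2.09 and -1.63 and the RAL arrays -2.41, -1.77 and -1.89. With no filter on dim probes, which tests 35089 probes, it passed under EE (-0.89 ± 0.20, adjusted p = 0.0436) and RAL (-1.03 ± 0.20, adjusted p = 0.0384). In that fit TAM (-0.87 ± 0.18, adjusted p = 0.0741), EQ (-0.56 ± 0.20, adjusted p = 0.147) and EB (-0.41 ± 0.20, adjusted p = 0.754) did not pass, and neither did probe 135046 under EE (adjusted p = 0.0543).

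**Figure D2:**
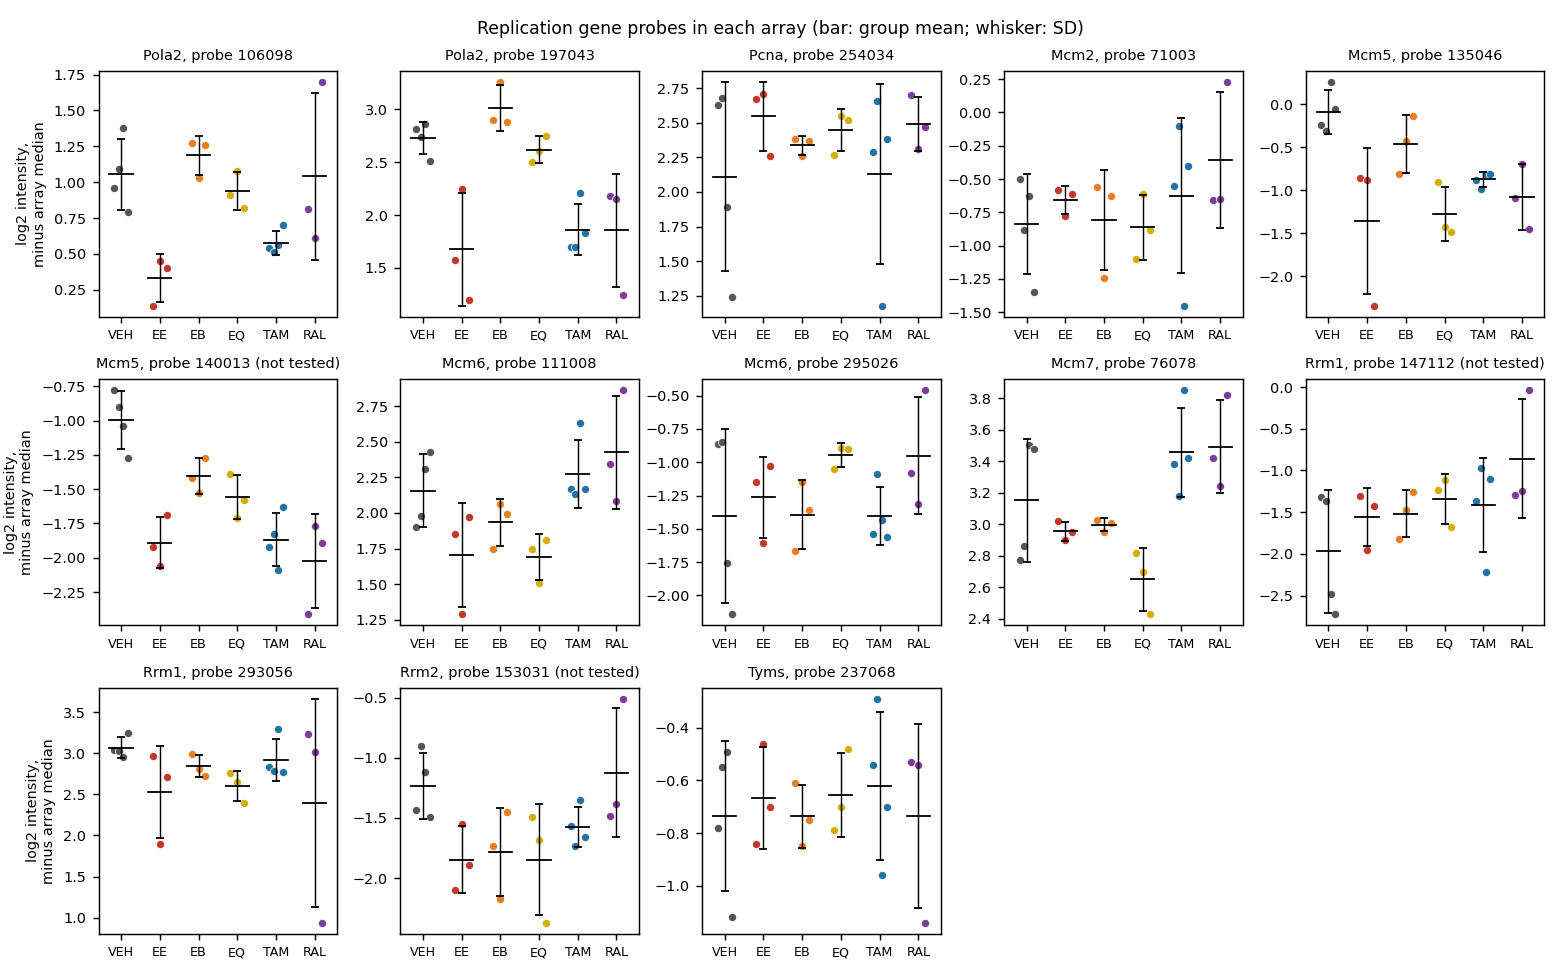
Log2 intensity minus the array median (y axis) of the 13 replication gene probes in each of 20 arrays (points) by group (x axis: VEH, EE, EB, EQ, TAM, RAL), with the group mean (bar) and SD (whisker). Pola2 probe 197043 is below every vehicle array under EE, TAM and RAL, and Mcm5 probe 135046 under EE, EQ, TAM and RAL; each panel has its own y axis.

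Without EE array 3 and RAL array 3 together, an alternative chosen after the data were seen, Pola2 probe 197043 passed under EE (-0.82, adjusted p = 0.0433) and TAM (-0.87, adjusted p = 0.015). Mcm5 probe 135046 then passed under EQ (-1.19, adjusted p = 0.00516) and TAM (-0.78, adjusted p = 0.0463) and not under EE (-0.78, adjusted p = 0.0725), where Pola2 probe 106098 passed (-0.76, adjusted p = 0.0271). With these arrays out, 2 of the 10 probes passed under TAM in place of 0. The share of all probes that passed in this fit is not given here. Of 34 tested mitosis genes, those lower went from 6 to 9 under EE, 10 to 15 under EQ and 8 to 10 under TAM. Under RAL they went from 3 to 2.

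The other MCM subunits did not show the Mcm5 pattern. Mcm2 probe 71003 ranged from -1.45 to 0.23 over the arrays, and its changes from vehicle lay between -0.02 and 0.48. Mcm7 probe 76078 read 2.77, 2.86, 3.50 and 3.48 in vehicle, 3.02, 2.90 and 2.95 under EE, 3.03, 2.95 and 3.01 under EB, and 2.82, 2.70 and 2.43 under EQ. It read 3.38, 3.18, 3.85 and 3.42 under TAM and 3.42, 3.24 and 3.82 under RAL, so the vehicle arrays spanned both levels. The largest Mcm7 change from vehicle was -0.50 ± 0.21 under EQ (adjusted p = 0.176).

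Mcm6 was measured by 2 probes whose values had a correlation of 0.00 over the 20 arrays. Probe 111008 ranged from 1.29 to 2.86, with changes of -0.45 ± 0.21 under EE (adjusted p = 0.357) and -0.47 ± 0.21 under EQ (adjusted p = 0.219). All 3 EQ arrays (1.75, 1.51 and 1.81) lay below the vehicle arrays (1.90, 1.98, 2.31 and 2.43), as did 22.5% of all probes under EQ. Probe 295026 ranged from -2.14 to -0.46 and had a change of 0.46 ± 0.29 under EQ (adjusted p = 0.363).

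Pcna, the sliding clamp, read 2.63, 2.68, 1.89 and 1.24 in vehicle on probe 254034. The spread within vehicle (SD 0.68) was larger than any of its changes, which ran from 0.02 under TAM to 0.44 under EE, and the F-test did not pass (adjusted p = 0.721). Outside vehicle the only low reading was TAM array 3, at 1.18; the other treated arrays lay between 2.26 and 2.71.

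The deoxynucleotide genes likewise gave no call. Rrm1, the large subunit of ribonucleotide reductase, read 3.03 in the median vehicle array on probe 293056, and its changes lay between -0.67 (RAL) and -0.15 (TAM). The RAL value rests on array 3, at 0.94, the other RAL arrays being 3.02 and 3.23. All EQ arrays (2.40 to 2.76) were below all vehicle arrays (2.96 to 3.25), at -0.46 ± 0.38 (adjusted p = 0.496). Such a separation held for 22.5% of all probes under EQ. The dim Rrm1 probe 147112, fitted with no filter, went the other way. Its changes were 0.41, 0.45, 0.63, 0.55 and 1.11 under EE, EB, EQ, TAM and RAL. None of them passed (limma adjusted p = 0.114 under RAL, where array 3 read -0.04). Tyms probe 237068, for thymidylate synthase, was the flattest: its values stayed between -1.14 and -0.29, its changes between 0.00 and 0.11, and its F-test gave an adjusted p of 0.986. Rrm2, the small subunit, was too dim to be tested; group means ran from -1.85 under EE and EQ to -1.12 under RAL, against -1.24 ± 0.28 (SD, n = 4) in vehicle, and without the filter no change passed.

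Several of these probes were set apart by the same 3 arrays. VEH arrays 3 and 4 and TAM array 3 were low for Pcna, for Rrm1 probe 147112 (-2.48, -2.72 and -2.22, against -1.95 to -0.04 elsewhere) and, in the vehicle arrays, for Mcm6 probe 295026 (-1.76 and -2.14). The same arrays were high for Mcm7 and Mcm6 probe 111008. For Pcna against Mcm7 the Pearson correlation over the 20 arrays after group means were subtracted was -0.76, a description in which the arrays share the normalisation. Over all 45 pairs of tested probes the median correlation was 0.00 (range -0.56 to 0.85), and -0.16 (range -0.79 to 0.71) after group means were subtracted.

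**Figure D3:**
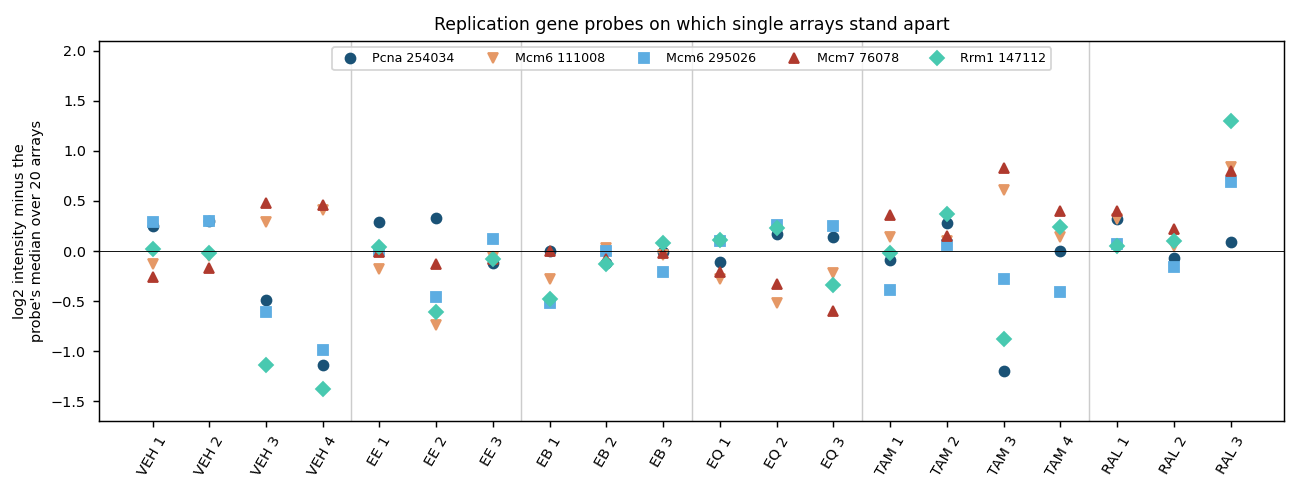
Level of 5 replication gene probes in each array (x axis, 20 arrays in groups separated by lines), as log2 intensity minus the probe's median over all arrays (y axis). In VEH arrays 3 and 4 and TAM array 3 the Pcna, Mcm6 295026 and Rrm1 147112 points lie below 0 and the Mcm7 and Mcm6 111008 points above it; in RAL array 3 all 5 lie above 0.

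The 10 tested probes had no common direction. Their median change was -0.32 under EE, 0.01 under EB, -0.11 under EQ, 0.01 under TAM and 0.14 under RAL, beside medians over all probes of -0.05, -0.12, -0.17, -0.03 and -0.02. Relative to the shift of all probes, the medians were -0.27, 0.12, 0.05, 0.04 and 0.16. The groups did not overlap, with the treated arrays lower, for 3 probes under EE, 3 under EQ, 3 under TAM and 2 under RAL; over all probes such separation held for 7.69%, 22.5%, 4.51% and 10.9%. Under EB 1 probe, Pola2 197043, had all treated arrays higher, as did 3.67% of all probes. These 5 comparisons share the same 4 vehicle arrays.

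**Figure D4:**
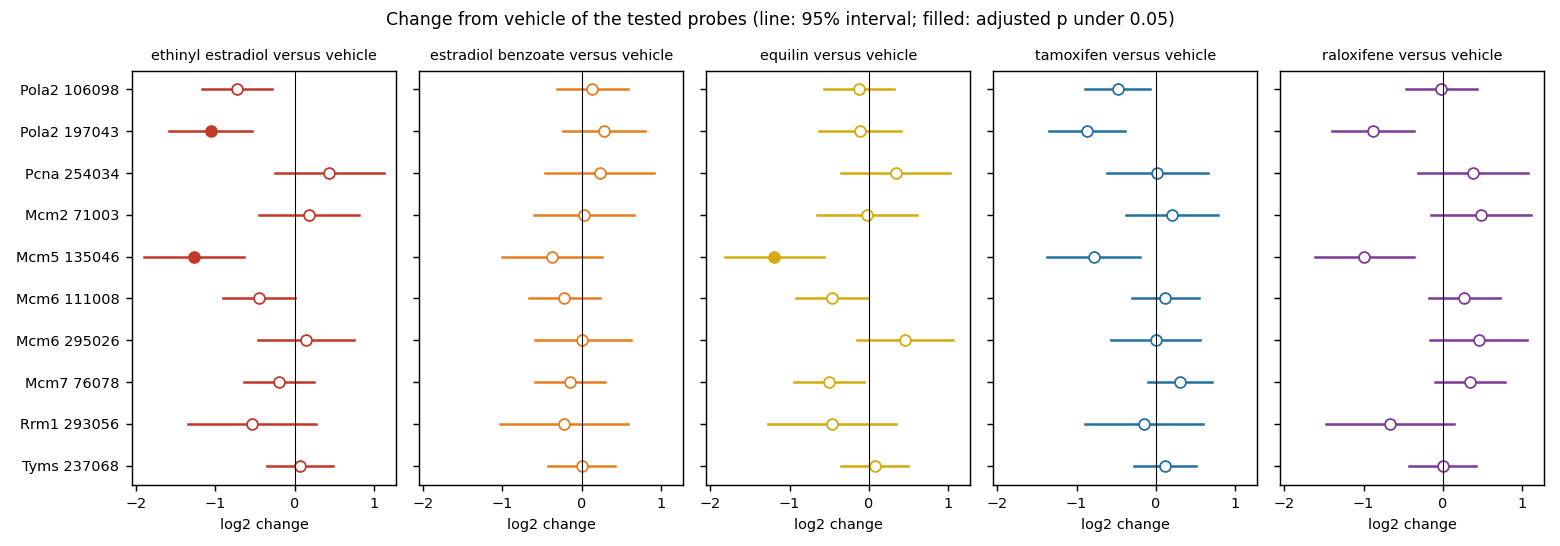
Log2 change from vehicle (x axis) of the 10 tested replication gene probes (y axis) under each compound, with 95% intervals; filled points passed at a limma adjusted p under 0.05. Pola2 197043 and Mcm5 135046 are filled under EE and Mcm5 135046 under EQ, and no other point is filled.

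Between compounds given at the same dose, 4 pairs were compared, with p-values adjusted over all probes within each pair. Ethinyl estradiol is estradiol with an ethynyl group, and estradiol benzoate is an ester of estradiol. Pola2 probe 197043 was lower under EE than under EB, at means of 1.67 ± 0.53 and 3.01 ± 0.21 (SD, n = 3 each), a difference of -1.34 (95% interval -1.90 to -0.78, limma adjusted p = 0.0386), and it was the single replication probe to pass there, where 0.281% of all probes passed. No array of either group overlapped the other, and all arrays of both are in set A. The share of all probes separated between EE and EB is not given here. The call was lost in 12 of 20 fits without a single array, with differences from -1.63 to -1.1. Probe 106098 differed by -0.86 (interval -1.33 to -0.39, adjusted p = 0.139) and Mcm5 probe 135046 by -0.90 (interval -1.57 to -0.22, adjusted p = 0.352), neither of which passed.

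Equilin carries an extra double bond in ring B and a ketone at the D ring. Between EE and EQ, 0 of the 10 probes passed by limma, beside 0.175% of all probes. Both Pola2 probes, 2 of the 10, were lower under EE at an unadjusted p under 0.05, as were 2.63% of all probes. Pola2 probe 197043 differed by -0.95 (interval -1.50 to -0.39, adjusted p = 0.191), whereas Mcm5 probe 135046 differed by -0.08 (interval -0.76 to 0.59). Between EQ and EB 0 of the 10 and 0% of all probes passed by limma. At an unadjusted p under 0.05 the count was 1 of 10, lower under EQ, beside 2.06% of all probes: Mcm5 135046, at -0.81 (interval -1.49 to -0.14, adjusted p = 0.999).

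For TAM against RAL, 0 of the 10 probes passed by limma, beside 0.00407% of all probes. At an unadjusted p under 0.05 the count was 1 lower under TAM, beside 4.55% of all probes: Pola2 probe 106098, at -0.46 (interval -0.90 to -0.02, adjusted p = 0.37), on which RAL array 3 was high. For Pola2 probe 197043 the difference was 0.00 (interval -0.52 to 0.52) and for Mcm5 probe 135046 it was 0.21 (interval -0.42 to 0.84), intervals that hold differences in both directions.

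Averaged over the 3 estrogens, Mcm5 probe 135046 was lower than vehicle by -0.94 ± 0.24 (adjusted p = 0.0376), the 1 probe of 10 to pass, beside 2.61% of all probes. That call was lost with the array set as a block (-0.79, adjusted p = 0.9), with the replicate block (-0.93, adjusted p = 0.111) and in 10 of 20 fits without a single array (-1.03 to -0.78, adjusted p 0.0171 to 0.188). Averaged over the 2 SERMs, 0 of 10 passed by limma, beside 0.574% of all probes. At an unadjusted p under 0.05 the count was 2, both lower, beside 10.7% of all probes: Pola2 probe 197043 at -0.88 ± 0.20 (adjusted p = 0.0578) and Mcm5 probe 135046 at -0.89 ± 0.25 (adjusted p = 0.0845). All 7 SERM arrays were below all 4 vehicle arrays for both, a separation found for 2.59% of all probes. The estrogen mean exceeded the SERM mean for Pola2 probe 197043 (0.58, adjusted p = 0.0195) and was below it for Mcm6 probe 111008 (-0.58, adjusted p = 0.00883) and Mcm7 (-0.61, adjusted p = 0.00544). In that comparison 18.7% of all probes passed, the classes were given at different doses, and class and array set cannot be told apart: each estrogen array is in set A and each SERM array in set B, and 0 of the 10 passed with the array set as a block.

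Among other genes of DNA replication and the G1/S step, Mcm10 and Timeless were lower under EQ and Chaf1b under RAL. Of 92 listed genes 62 were tested. Under EE, EB and TAM 0 of them passed by limma. Counts of lower genes at an unadjusted p under 0.05 were 6, 6, 13, 1 and 13 under EE, EB, EQ, TAM and RAL. Those of higher genes were 2, 0, 1, 2 and 7. Of all probes 4.71%, 4.87% and 15.8% were lower at that threshold under EB, TAM and RAL, and the shares for EE and EQ are not given here. Under EQ 2 passed, Mcm10, which helps to start the helicase (-1.66 ± 0.34, adjusted p = 0.0154), and Timeless, a fork protection protein (-0.69 ± 0.18, adjusted p = 0.0453). Under RAL 1 passed, Chaf1b, a subunit of a chromatin assembly factor at the fork (-0.92 ± 0.21, adjusted p = 0.0388). Mcm4, Pola1, Prim1, Lig1 and Fen1 did not pass in these comparisons on their brightest probe, although another Pola1 probe was higher under RAL (1.07, adjusted p = 0.0366). Pola1, the catalytic partner of Pola2, changed by 0.14 ± 0.25 under EE. The Tk1 probe was too dim to be tested, and Cdc6 and Cdt1 had no probe. Of all probes 3.69% passed under EQ and 2.04% under RAL, shares that the counts of 2 and 1 of 62 do not exceed. The EQ count depended on the settings: 19 were lower and 2 higher with array weights, and 0 passed with the array set as a block. Without EE array 3 and RAL array 3, 9 of 63 tested genes were lower under EQ. The medians of the 62 genes were -0.12, -0.15, -0.26, -0.04 and -0.03 under EE, EB, EQ, TAM and RAL.

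Top2a and Mki67 were among the mitosis genes that were lower than vehicle at the same time point under EE, EQ, TAM and RAL. Of 34 tested mitosis genes 6 fell under EE, 0 under EB, 10 under EQ, 8 under TAM and 3 under RAL, and 1 rose, under EQ. The difference between the lists was not tested. The mitosis list was chosen with earlier results of these data known, so its counts are not independent evidence of a fall. Of all probes 1.20%, 0.700%, 3.69%, 0.224% and 2.04% passed in either direction in these comparisons. At an unadjusted limma p under 0.05, 17, 12, 17, 15 and 6 of the 34 were lower under EE, EB, EQ, TAM and RAL. Higher genes numbered 3, 0, 3, 0 and 2. Of all probes 4.71%, 4.87% and 15.8% were lower at that threshold under EB, TAM and RAL, and the RAL count is near that share. The EE and EQ shares are not given here, so the counts of 17 cannot be set against all probes. The groups were not compared by a test. With the replicate block the counts of lower genes that passed were 3, 0, 4, 6 and 3 under EE, EB, EQ, TAM and RAL, and with array weights 6, 0, 18, 12 and 4. Without EE array 3 and RAL array 3 they were 9, 0, 15, 10 and 2. Their medians were -0.50, -0.30, -0.53, -0.36 and -0.11. Top2a, the topoisomerase that untangles sister chromatids, averaged 1.24 ± 0.21 (SD, n = 4) in vehicle and changed by -1.83 ± 0.20 under EE (adjusted p = 0.000529), -1.37 ± 0.20 under EQ (adjusted p = 0.00806), -1.71 ± 0.19 under TAM (adjusted p = 0.000323) and -1.23 ± 0.20 under RAL (adjusted p = 0.0192). The change under EB was -0.79 ± 0.20 (adjusted p = 0.0947). Mki67, the proliferation marker Ki-67, also fell under EE (-1.37 ± 0.30), EQ (-1.32 ± 0.30), TAM (-1.50 ± 0.28) and RAL (-1.60 ± 0.30), with adjusted p from 0.0213 to 0.0347. Nusap1, a spindle protein, fell under EE (-1.42 ± 0.20), EQ (-1.13 ± 0.20) and TAM (-1.23 ± 0.19). Cdk1 and Ccnb1, the mitotic kinase and its cyclin, did not pass on their brightest probes, but another Cdk1 probe fell under EQ (-1.32, adjusted p = 0.0138).

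With the array set as a block, 2, 0, 0, 7 and 1 mitosis genes were lower under EE, EB, EQ, TAM and RAL, and 0 of the replication probes. Under TAM and RAL, 3 vehicle arrays of the same set serve as controls. There Pola2 probe 197043 was at -0.85 (limma adjusted p = 0.407) and -0.85 (adjusted p = 0.131). Mcm5 probe 135046 was at -0.83 (adjusted p = 0.627) and -1.04 (adjusted p = 0.128). Neither probe had passed under TAM or RAL in the main fit, so neither had a call to lose. The mitosis and replication lists were not compared by a test. Pola2 probe 106098 was at -0.51 under TAM (adjusted p = 0.744) and -0.05 under RAL (adjusted p = 0.916). Across the 20 arrays, the correlation with the mean level of the mitosis genes was 0.61 for Pola2 probe 106098, 0.29 for Pola2 probe 197043 and 0.42 for Mcm5 probe 135046. After group means were subtracted these were 0.37, 0.00 and 0.00. Mcm7 and Mcm6 probe 111008 gave 0.62 and 0.58 after subtraction, and Tyms and Pcna -0.64 and -0.58. All are descriptions over arrays that share their normalisation.

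**Figure D5:**
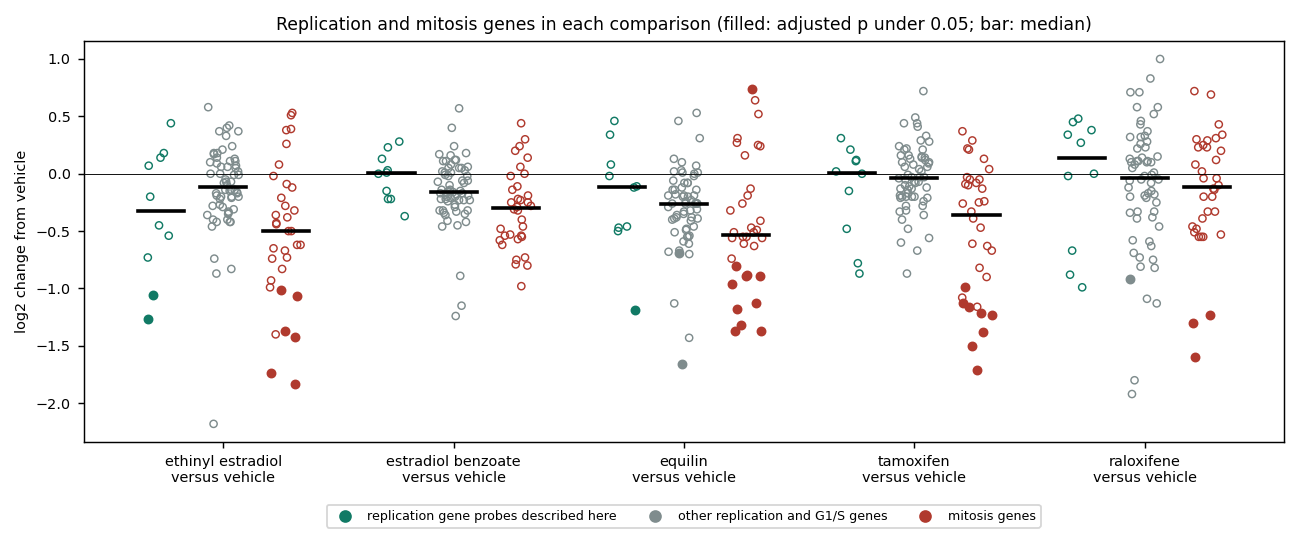
Log2 change from vehicle (y axis) in each comparison (x axis) of the 10 replication gene probes described here (green), 62 other replication and G1/S genes (grey) and 34 mitosis genes (red); filled points passed at a limma adjusted p under 0.05 and bars are medians. Filled green, grey and red points number 2, 0 and 6 under EE, 0, 0 and 8 under TAM, and 0, 1 and 3 under RAL. Under EQ 1 green and 2 grey points are filled, with 10 lower and 1 higher red points, and no point is filled under EB. The sets differ in size, so these counts are not shares, and the lists were chosen with earlier results of these data known.

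By likeness, the mean of the 10 tested probes, each standardised over the 20 arrays, correlated most with Kcnip1 (0.79), Ddah2 (0.77), Slc44a1, Vps9d1 and Steap3 (0.76 each), Pdgfra (0.75), Rab33a (0.74), and Lrp1, Vstm4 and Smoc2 (0.72 each). Pdgfra is 1 of the 7 fibroblast markers whose sums are given next. After group means were subtracted the closest were Gga2, Rnf123, Blvrb, Rpl10a and Rac2 (0.81 each), Arsi and Ddah2 (0.79 each), Ston2 (0.78), and Thoc6 and Csf1 (0.77 each). Ddah2 was the 1 gene in both sets of 10. None of these is a gene of the replication or mitosis lists.

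Markers of other cell types differed between the same groups. The summed intensity of 7 fibroblast genes was 378 to 437 in vehicle and lower in every array of EE (275 to 325), EQ (288 to 325) and TAM (285 to 348), while EB (370 to 390) and RAL (320 to 430) overlapped vehicle; 2, 1, 1, 0 and 1 of the 7 fell under EE, EQ, TAM, EB and RAL. The sum of 7 mast cell genes was 28.1 to 34.5 in vehicle and 19.9 to 24.5 under EE. The smooth muscle sum was 670 to 864 in vehicle, 816 to 911 under EE and, below every vehicle array, 492 to 652 under EB and 483 to 644 under TAM. The endothelial sum was 188 to 243 in vehicle and 170 to 176 under RAL. Macrophage, adipocyte and erythroid sums under EE overlapped vehicle. The pancreatic acinar sum ran from 3.58 to 703 under EE. The sum of 6 lymphocyte genes was 5.09 to 20 in vehicle and 5.37 to 13.3 in the treated arrays. No marker of any list was at 0 in all arrays. Their part in the Pola2 and Mcm5 values was not tested.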

How the data were processed

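Mesenteric artery RNA was measured on 20 arrays, 1 per rat. The deposited values are intensities that the authors had already scaled, with array medians between 1.0007 and 1.0612. Per the series' design text, slides were read with a GenePix 4000B scanner, and GenePix Pro 5.0, Acuity 3.1 and GeneSpring 7.1 were used; the program that scaled the values is not named there.

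Intensities at or below 0 were set to 0, 0.103 (0.1 times the median) was added, and log2 values were centred on each array's median. Probes with over 1 missing value in any group were left out, and then the lowest 30% by mean. In R 4.3.3, limma 3.58.1 fitted 6 group means with a variance trend, with Benjamini-Hochberg adjustment over 24562 probes; the scripts were tested on simulated data. Symbols came from the platform annotation: 16865 probes had 1 symbol, 165 several and 18099 none. The number of arrays limits the precision.

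All probes of the listed genes are named. Of the other lists, up to 3 genes of smallest p that passed in each comparison are named, with a fixed set that includes Top2a, Mki67, Cdk1 and Pola1, using the brightest probe. The members and lists were chosen with earlier results of these data known. Motifs, and the fit without EE array 3 and RAL array 3, were chosen after values were seen. Alternatives changed the normalisation, offset, filter, variance model, blocks and arrays.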

Additional observations from a re-analysis of the deposited data

Results flagged for a closer look

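In tamoxifen array 3, Mcm6 probe 111008 read 2.63 and Rrm1 probe 293056 read 3.30, against 2.13 to 2.17 and 2.77 to 2.83 in the other tamoxifen arrays; each gap is above Dixon's 95% critical value. Of 26 groups of 4 arrays examined, chance would pick out about 1 in 20. Pola2 probe 197043 differed between ethinyl estradiol and estradiol benzoate by -1.34 on the log2 scale, by limma's test of that difference. Between the estrogen mean and the SERM mean, the differences that passed were 0.58 for Pola2 probe 197043, -0.58 for Mcm6 probe 111008 and -0.61 for Mcm7, where class and array set cannot be told apart.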

How the results depend on the processing

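Counts are of the 10 tested probes that passed, and with no filter 13 probes were tested. The share of all probes that passed in each setting is not given here. For EE the count of 2 became 0 with quantile normalisation, no centring, a smaller offset, the lowest 50% of probes left out, the replicate block, the array set block, no regularly spaced probes or only the groups compared, and 1 with no filter, where the probe that passed was the dim Mcm5 probe 140013 and both earlier calls were lost. For EQ (1) and the estrogen mean (1) it became 0 under these settings other than no centring and no filter. With no filter the estrogen mean gave 2, with Mcm5 probe 140013 added, and with array weights EQ gave 3. The filter at 50% removed Mcm5 probe 135046 from the test. For TAM (0) it was 1 with array weights and 2 without EE array 3 and RAL array 3. For RAL (0) it was 1 with a larger offset, no filter (Mcm5 probe 140013) or array weights. For EE against EB (1) it was 2 with array weights or without both arrays and 0 with the replicate block or only the groups compared. With array weights EE against EQ gave 2 and EQ against EB 3. The SERM mean (0) gave 1 with a larger offset or no filter (Mcm5 probe 140013) and 2 with array weights or without both arrays. Estrogens against SERMs (3) gave 0 with the array set block. Leaving out single arrays gave 0 to 3 for EE, 0 to 1 for EQ, TAM, EE against EQ and the estrogen mean, 0 to 2 for RAL, EE against EB and the SERM mean, 3 to 3 for estrogens against SERMs, and 0 to 0 for EB, EQ against EB and TAM against RAL. Where not stated, the cause was not tested. No change of a single probe that had passed reversed its sign. After group means were subtracted, arrays of different groups with the same replicate number had a median correlation of 0.02 (46 pairs, range -0.43 to 0.30). For arrays with different numbers it was 0.00 (120 pairs, range -0.43 to 0.65). Correlations above 0.1 were found in 10 of the 46 pairs and 21 of the 120. With the replicate block, Pola2 probe 197043 under EE was -1.10 (limma adjusted p = 0.0901), Mcm5 probe 135046 was -1.25 under EE (adjusted p = 0.11) and -1.17 under EQ (adjusted p = 0.0877), and Pola2 in EE against EB was -1.34 (adjusted p = 0.0697).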
